A study of Homo sapiens with 6 samples.

Results

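The genes examined here were the UGT1A glucuronosyltransferases and the enzymes that supply their sugar donor, 10 of the 58884 genes in the deposited matrix. They were chosen by symbol: UGP2 and UGDH, which make UDP-glucose and UDP-glucuronate, and UGT1A1, UGT1A3, UGT1A4, UGT1A6, UGT1A7, UGT1A8, UGT1A9 and UGT1A10. Each symbol had a single row in the matrix. RNA sequencing was compared between 3 libraries of KYSE450, a line of esophageal squamous cell carcinoma (ESCC) cells whose NRF2 is wild-type, and 3 libraries of KEAP1null-KYSE450. The second line was derived from the first by CRISPR-Cas9 editing with an sgRNA against exon 2 of KEAP1 and is a single clone. Both lines were grown in RPMI1640 with fetal bovine serum and antibiotics and were labelled as untreated. The question was how expression differed between KYSE450 and the clone edited in KEAP1, whose product holds NRF2 protein low. Loss of KEAP1 and other differences of a single clone from its parental line cannot be told apart in this design.

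Glucuronidation couples a drug, bilirubin, steroid or phenol to glucuronic acid, which makes it more soluble and readier for export from the cell. UGP2 joins glucose 1-phosphate to UTP to give UDP-glucose, UGDH oxidizes UDP-glucose to UDP-glucuronate with reduction of NAD+, and UGT enzymes in the membrane of the endoplasmic reticulum use UDP-glucuronate as the donor. The UGT1A enzymes come from a single locus with a row of alternative first exons, each with its own promoter, spliced to a common set of downstream exons, and the locus is best known from liver and intestine.

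In the gencode v44 annotation of hg38, all 8 UGT1A members lay on the plus strand of chromosome 2 and ended at position 233773300. Their starts ran from 233617633 for UGT1A8 through 233636448 for UGT1A10, 233671898 for UGT1A9, 233681901 for UGT1A7, 233691607 for UGT1A6, 233718736 for UGT1A4 and 233729042 for UGT1A3 to 233760270 for UGT1A1. Each main transcript had 5 exons. Exons 2 to 5 were identical in 8 of 8 members and came to 1479 bases, so reads that lie within them cannot be told apart between these genes. UGDH, with 12 exons, spanned 39498755 to 39528311 of chromosome 4 on its minus strand. UGP2, with 10 exons, spanned 63840952 to 63891562 of chromosome 2 on its plus strand.

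The splice junctions of the 3 UGT1A members with a mean of at least 10 normalized counts are shown because they mark where each gene's first exon meets the common exon 2. A read across a junction also touches exon 2, and whether such reads were counted is not known. The last 20 bases of each first exon are in lower case, and the first 20 bases of the common exon 2, chr2:233767034-233767053 in hg38, are in capitals.
UGT1A1, first exon part chr2:233761132-233761151: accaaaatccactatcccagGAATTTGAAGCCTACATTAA
UGT1A6, first exon part chr2:233693846-233693865: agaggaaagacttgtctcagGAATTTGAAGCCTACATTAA
UGT1A7, first exon part chr2:233682773-233682792: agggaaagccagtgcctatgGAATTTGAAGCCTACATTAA
The capitals were the same in all 3 and the lower-case parts were not. Over whole first exons, UGT1A1 was 55.1% to 61.5% identical to the other members, and UGT1A7, UGT1A8, UGT1A9 and UGT1A10 were 87.9% to 94.4% identical among themselves. UGT1A3 and UGT1A4 were 93.1% identical. In the first exon of each member, 100% of the 150-base windows, the read length, occurred in the first exon of no other member. UGT1A5 and the pseudogenes of the locus were not compared.

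The rows of UGT1A8 and UGT1A10 stood at 0 in all 6 libraries although both genes include exons 2 to 5. In the 4 libraries with recovered reads all values were whole reads. Reads in the shared exons were therefore neither given to every UGT1A row nor divided in fractions among all of them. The counting settings are not stated in the sources used here, and UGT1A values are read below as a count of the part that is a gene's own. Some exons of other annotated transcripts of a gene are also its own. The first exon of the main transcript was not wholly a gene's own for UGT1A6 and UGT1A3. There, 572 of 976 bases and 538 of 952 bases overlapped no other gene. Over all annotated transcripts, the share of exonic bases that overlap no other gene was 35.3% for UGT1A6, 49.9% for UGT1A1, 59.7% for UGT1A7, 87.3% for UGDH and 99.6% for UGP2.

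**Figure D1:**
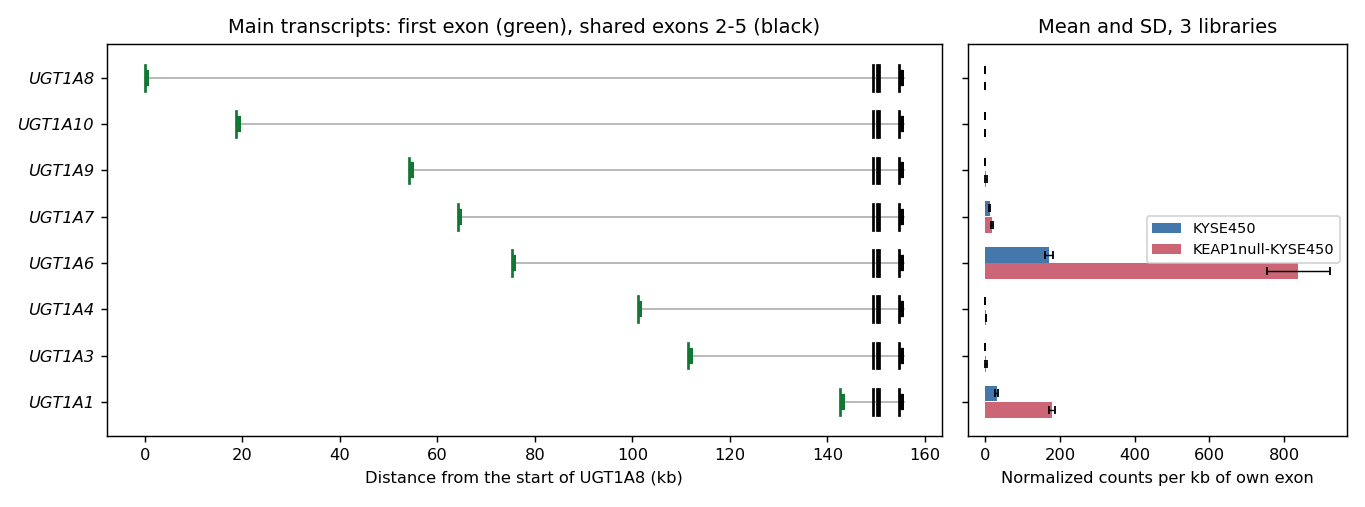
Left, the main transcripts of the 8 UGT1A members against the distance in kb from the start of UGT1A8, with first exons in green and exons 2 to 5 in black (tick marks widen the exons). Right, the mean normalized counts per kb of exon of no other gene in KYSE450 (blue) and KEAP1null-KYSE450 (red), with the SD over 3 libraries. UGT1A6 reached 839 per kb in KEAP1null-KYSE450, UGT1A1 reached 178 and UGT1A7 reached 18.1, and the other rows lay at or near 0.

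The summed normalized counts lay between 54829313 and 57380170 per library, and reads recovered for 4 of 6 libraries lay between 53027359 and 61543442. A floor of 3 reads corresponded to 2.77 to 3.21 normalized counts and covers counting error only. KEAP1 mRNA did not separate the lines (5377 ± 334 in KYSE450 and 5320 ± 415 in KEAP1null-KYSE450, SD, n = 3), and counts per gene do not show an edit. Known NRF2 target genes did: the log2 fold change was 2.70 for NQO1 and 3.98 for GCLC, while NFE2L2, the gene of NRF2, was at -0.47. All 7 squamous markers were above the floor in at least 1 library, with summed levels of 293226 to 403773 in KYSE450 and 554408 to 692449 in KEAP1null-KYSE450. The most abundant markers carry such a sum, and it does not give the direction of each marker. The 7 hepatocyte markers summed to at most 11.1 normalized counts in any library, with APOB and FGB at 0, and of the 6 intestinal markers CDX1, CDX2, FABP2, APOA4 and SI were at 0. The 3 immune markers summed to at most 9.10. The 3 fibroblast markers summed to 607 to 839 in KYSE450 and 347 to 431 in KEAP1null-KYSE450, with COL1A2 at or below the floor, and their part in the results was not tested. In bulk RNA, fewer cells with a transcript and less transcript per cell cannot be told apart. Nothing in the sources used here says whether libraries of a line came from separate cultures, so p-values measure the spread between these libraries, which may be technical.

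Of the 10 members, 5 had a mean of at least 10 normalized counts and could be tested, 3 of these rose in KEAP1null-KYSE450 (UGDH, UGT1A6 and UGT1A1) and 0 fell. The remaining pair, UGP2 and UGT1A7, did not pass. A rise meant an adjusted p under 0.05 and a log2 fold change of at least 1 in limma with Benjamini-Hochberg adjustment over the 16701 genes tested, on log2(normalized count + 1). By this rule 12.2% of all genes tested rose and 5.98% fell. The median log2 fold change of all genes tested was 0.0041. Of the 5 members tested, 4 had every KEAP1null-KYSE450 library above every KYSE450 library, which 28.4% of all genes tested also had.

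**Figure D2:**
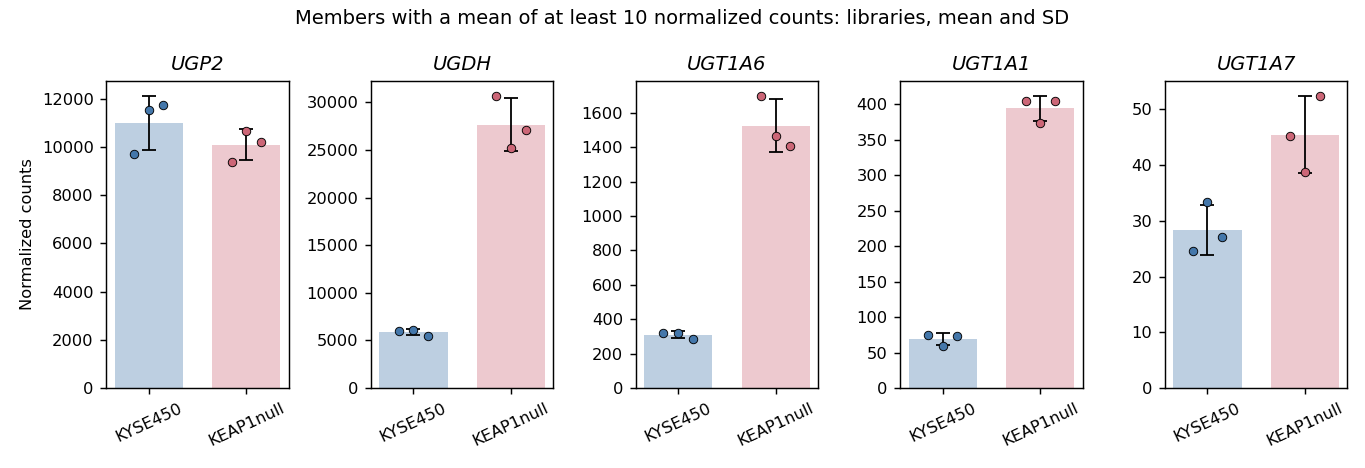
Normalized counts (linear axes from 0, a scale per gene) of the 5 members that could be tested, with points for libraries, bars for means and error bars for the SD over 3 libraries. UGDH, UGT1A6, UGT1A1 and UGT1A7 do not overlap between the lines, while UGP2 does.

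UGP2 (ENSG00000169764), the enzyme at the entry of the route, stayed within the spread between libraries. Its normalized counts were 9697, 11537 and 11755 in KYSE450 and 9387, 10677 and 10216 in KEAP1null-KYSE450, so the lines overlapped. The log2 fold change was -0.12 (standard error 0.10, 95% interval -0.34 to 0.10, adjusted p = 0.35 from limma). The interval leaves room for a modest difference in either direction but not for one of the size seen for UGDH.

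UGDH (ENSG00000109814), which commits UDP-glucose to UDP-glucuronate, rose. Its normalized counts were 6010, 6121 and 5480 in KYSE450 and 30702, 25214 and 27083 in KEAP1null-KYSE450. The lowest KEAP1null-KYSE450 library was far above the highest KYSE450 library. The means were 5870 ± 342 and 27666 ± 2790 (SD, n = 3), a 4.71-fold difference, and limma put the log2 fold change at 2.23 with a standard error of 0.10 (adjusted p = 3.4e-09).

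How UGP2 and UGDH stood to each other in KYSE450 depended on the length used. Per kb of the main transcript, a length chosen after the values were seen, UGP2 was at 5115 ± 526 and UGDH at 1933 ± 113 normalized counts (SD, n = 3). Per kb of all annotated exons of no other gene, they were at 1626 ± 167 and 1672 ± 97.5, a difference smaller than the spread. In KEAP1null-KYSE450, UGDH was above UGP2 on both scales, at 9110 ± 919 against 4695 ± 304 per kb of the main transcript and at 7878 ± 794 against 1492 ± 96.7 per kb of all exons. The difference UGP2 minus UGDH in log2 counts went from 0.90 ± 0.21 in KYSE450 to -1.45 ± 0.24 in KEAP1null-KYSE450 (SD, n = 3). An exact two-sided permutation test over libraries gave p = 0.10, the smallest that 3 against 3 allows, and 0.17 after adjustment over 5 such pairs of members. These pairs were chosen after the values were seen.

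UGT1A6 (ENSG00000167165), an enzyme for small planar phenols, was the most abundant UGT1A row in both lines. Its normalized counts were 321, 321 and 286 in KYSE450 and 1701, 1465 and 1409 in KEAP1null-KYSE450. No library of the edited line came near the KYSE450 range. Means were 309.5 ± 20.2 and 1525 ± 155 (SD, n = 3), a 4.93-fold difference, and limma gave a log2 fold change of 2.29 with a standard error of 0.12 (adjusted p = 2.0e-08).

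UGT1A1 (ENSG00000241635), the enzyme that conjugates bilirubin, rose from a lower level. It had 74.9, 58.6 and 73.7 normalized counts in KYSE450 and 404, 373 and 405 in KEAP1null-KYSE450. The libraries of each line were close together and the lines were well apart. Means were 69.0 ± 9.05 and 394 ± 18.04 (SD, n = 3), a 5.71-fold difference, and the log2 fold change in limma was 2.50 with a standard error of 0.18 (adjusted p = 3.4e-07).

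UGT1A7 (ENSG00000244122), a form known from the upper digestive tract, was low and did not pass the test. It had 24.6, 33.4 and 27.0 normalized counts in KYSE450 and 45.2, 38.7 and 52.5 in KEAP1null-KYSE450. The lines did not overlap, but the gap between them was narrower than the range within either line. The log2 fold change was 0.66 (standard error 0.32, 95% interval -0.04 to 1.37, adjusted p = 0.11 from limma). With limma's eBayes run without a trend the same log2 fold change had an adjusted p of 0.022, and the fold change cutoff was still not met.

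The 5 other UGT1A rows were at or near 0. UGT1A8 and UGT1A10, known mainly from the intestine, had 0 in all 6 libraries. UGT1A3 had 0 in KYSE450 and 0, 2.04 and 1.01 normalized counts in KEAP1null-KYSE450. UGT1A4 had 0 in KYSE450 and 0.92, 3.06 and 2.02 in KEAP1null-KYSE450. UGT1A9, a form known from liver and kidney, had 0 in KYSE450 and 3.69, 0 and 1.01 in KEAP1null-KYSE450, the single value of these rows above the floor of 3 reads. None of these 5 was tested and no fold is given for them. By counting error alone, a count of 0 leaves room for an expected count of up to about 3 reads in a library.

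Summed over the 8 rows, UGT1A normalized counts were 420, 413 and 387 in KYSE450 and 2155, 1882 and 1870 in KEAP1null-KYSE450. The shares of this sum are given as a description. UGT1A6 held 76.0% ± 1.91 of the sum in KYSE450 and 77.4% ± 1.83 in KEAP1null-KYSE450 (SD, n = 3). UGT1A1 held 17.0% ± 2.53 and 20.1% ± 1.45. UGT1A7 held 6.97% ± 1.11 in KYSE450 and 2.32% ± 0.42 in KEAP1null-KYSE450, with no overlap between the lines, although its own counts were not lower in KEAP1null-KYSE450.

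The difference UGT1A7 minus UGT1A6 in log2 counts was -3.41 ± 0.22 in KYSE450 and -5.04 ± 0.28 in KEAP1null-KYSE450 (SD, n = 3), a change of -1.63. Its change against UGT1A1 was -1.84. Both gave p = 0.10 in the exact permutation test (0.17 adjusted over the 5 pairs), again the smallest possible value. UGT1A1 against UGT1A6 changed by 0.21 and UGDH against UGT1A6 by -0.061, each with p = 0.40 in the exact permutation test, before and after adjustment. These last differences lay within the spread between libraries, which does not show that the genes changed alike.

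Per kb of exon of no other gene, the order of the UGT1A forms was the same in both lines. UGT1A6 stood at 170 ± 11.1 normalized counts in KYSE450 and 839 ± 85.1 in KEAP1null-KYSE450 (SD, n = 3). UGT1A1 followed at 31.1 ± 4.08 and 178 ± 8.13, and UGT1A7 at 11.3 ± 1.80 and 18.1 ± 2.73. Neighbours in this order were separated by more than their spread in each line, also per kb of the main transcript, where KYSE450 had 541 ± 35.2 for UGT1A6, 78.3 ± 10.3 for UGT1A1 and 31.8 ± 5.07 for UGT1A7. The scale holds only if reads in shared exons were left uncounted.

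The promoter windows of UGT1A6, which rose, and of its chromosomal neighbour UGT1A7, which did not pass, were searched for motifs and are printed for that reason. RefSeq start sites of GRCh38.p14 gave a window of 250 bases upstream for 9 of 10 members, with more than 1 start for UGT1A6 and UGP2. UGT1A10 had no entry. The core TGACNNNGC, which antioxidant response elements bound by NRF2 hold, was searched on both strands, as was GCGTG, the core bound by the aryl hydrocarbon receptor. Of all 35116 such windows, 10.9% held the first and 32.2% the second.
UGT1A6, chr2:233692640-233692889, plus strand, with the TGACNNNGC match in capitals: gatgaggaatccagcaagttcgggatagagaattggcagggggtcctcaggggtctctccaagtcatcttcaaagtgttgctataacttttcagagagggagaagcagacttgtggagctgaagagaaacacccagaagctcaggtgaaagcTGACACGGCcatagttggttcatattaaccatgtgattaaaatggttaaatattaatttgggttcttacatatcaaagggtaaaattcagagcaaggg
UGT1A7, chr2:233681651-233681900, plus strand, with the GCGTG match, read on the other strand, in capitals: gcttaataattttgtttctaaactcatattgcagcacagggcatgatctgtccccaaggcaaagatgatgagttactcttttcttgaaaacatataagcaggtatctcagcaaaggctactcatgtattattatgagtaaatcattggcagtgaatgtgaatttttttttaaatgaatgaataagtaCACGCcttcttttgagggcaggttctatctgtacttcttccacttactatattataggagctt
The UGT1A6 window was the only one of those searched for the members that held TGACNNNGC, once. UGDH and UGT1A1, which also rose, held neither core in their windows, nor did UGT1A3. GCGTG occurred once each in the windows of UGT1A4, UGT1A7, UGT1A8, UGT1A9 and UGP2 and in the other UGT1A6 window. A match is a description of letters and was not tested as a binding site.

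The rest of the pathway was read from 7 lists of 59 genes, of which 39 were tested, 5 rose and 2 fell. Their median log2 fold change was -0.21. The counts of 5 and 2 depend on few genes near the thresholds, and each gene that passed is described here. Of all 16701 genes tested, 12.2% rose and 5.98% fell by the same rule. Neither these counts nor those of single lists are therefore read as a result about the pathway. An adjusted p under 0.05 in limma was reached by 27 of the 39, beside 8311 of all genes tested. Genes said below not to pass may have missed only the fold change cutoff.

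Of 8 genes that supply UDP-glucose, 7 were tested, 1 rose and 0 fell, with a median log2 fold change of -0.02. HK1, a hexokinase that phosphorylates glucose, rose from 5768 ± 1377 to 16516 ± 2372 normalized counts (SD, n = 3; log2 fold change 1.53, adjusted p = 5.1e-06 from limma). HK2, the other hexokinase with high counts, went the opposite way, from 11206 ± 2516 to 5583 ± 675, and at a log2 fold change of -0.99 it fell just short of the cutoff. PGM1, a phosphoglucomutase upstream of UGP2, was at a log2 fold change of 0.22 and did not pass. SLC35D1 and SLC35D2, carriers of UDP-sugars, were at -0.43 and 0.77. Both missed only the fold change cutoff (adjusted p = 0.020 and 0.0051 from limma).

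Of 13 genes of other UGT families, 3 were tested, 2 rose and 0 fell, and 10 were too low to test. The 2 that rose, UGT2B17 and UGT2A1, had means of 0.36 and 5.38 in KYSE450 and 32.6 and 25.8 in KEAP1null-KYSE450. They reached the filter only through KEAP1null-KYSE450. A fall could hardly have been called for them, so their p-values are not read as support for a rise. UGT2B17, a steroid-conjugating enzyme, had 1.07, 0 and 0 normalized counts in KYSE450, at or below the floor, and 26.8, 29.6 and 41.4 in KEAP1null-KYSE450 (adjusted p = 1.5e-04 from limma). A fold against so few reads depends on the pseudocount and is not given. UGT2B15, its close paralog, was not tested and had 0, 1.01 and 4.66 normalized counts in KYSE450 and 7.38, 11.2 and 12.1 in KEAP1null-KYSE450, and reads may be split between near-identical members of this family. UGT2A1, known from the olfactory epithelium, had 6.42, 5.05 and 4.66 normalized counts in KYSE450 and 30.5, 38.7 and 8.07 in KEAP1null-KYSE450 (log2 fold change 1.83, adjusted p = 0.029 from limma). Without KEAP1null-KYSE450 library 1 its adjusted p was 0.10 and without library 2 it was 0.16, and without KYSE450 library 2 or 3 it was 0.056 and 0.054, and it passed in 9 of 16 other settings. UGT8, which attaches galactose to ceramide, was at a log2 fold change of -0.82 and missed only the fold change cutoff (adjusted p = 1.8e-04 from limma).

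Among 15 genes whose products use UDP-glucuronate outside conjugation, 12 were tested, 1 rose and 2 fell, with a median log2 fold change of -0.50. HAS3, a hyaluronan synthase that builds its polymer from UDP-glucuronate and UDP-N-acetylglucosamine, fell. It had 15351, 11391 and 13208 normalized counts in KYSE450 and 522, 383 and 347 in KEAP1null-KYSE450. Every KYSE450 library was far above every KEAP1null-KYSE450 library. Its log2 fold change in limma was -5.003 with a standard error of 0.15 (adjusted p = 6.8e-11). HAS1 was at 0 in all libraries, and HAS2 had at most 10.2 normalized counts in any.

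CHSY3, a chondroitin synthase, fell from 108 ± 13.3 to 34.1 ± 3.01 normalized counts (SD, n = 3; log2 fold change -1.63, adjusted p = 2.4e-04 from limma). B3GAT2, a glucuronyltransferase that makes a carbohydrate epitope of nerve cells, rose from 19.9 ± 6.20 to 42.6 ± 5.14 (log2 fold change 1.10, adjusted p = 0.026 from limma). That call was lost without KYSE450 library 1 (adjusted p 0.077, log2 fold change 0.87) and without any of the KEAP1null-KYSE450 libraries (adjusted p 0.051 to 0.094), and it held in 6 of 16 other settings. The heparan sulfate polymerases EXT1 and EXT2 were at -0.74 and -0.75, and EXTL3 was at -0.86. All 3 missed only the fold change cutoff (adjusted p = 5.4e-04, 1.0e-04 and 0.0011 from limma).

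Of 8 genes that use UDP-glucose, 8 were tested and 0 passed both thresholds, with a median log2 fold change of -0.20. The range ran from -0.78 for UGCG, the glucosylceramide synthase, to 0.74 for NUDT14, a hydrolase of UDP-glucose. Of the 8, 4 had an adjusted p under 0.05 in limma, among them UGCG (6.4e-05) and NUDT14 (3.9e-04). GUSB, the lysosomal glucuronidase that removes glucuronic acid, was at -0.83 and missed only the fold change cutoff (adjusted p = 1.4e-04 from limma).

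Of 12 regulators known at UGT1A promoters, 6 were tested, 1 rose and 0 fell. RXRA, the partner of several nuclear receptors, rose from 3312 ± 522 to 7658 ± 279 normalized counts (SD, n = 3; log2 fold change 1.22, adjusted p = 2.6e-06 from limma). AHR, the aryl hydrocarbon receptor, was at 0.26, and its partner ARNT at -0.91. Both missed only the fold change cutoff (adjusted p = 0.029 and 3.3e-05 from limma). The nuclear receptors NR1I2 and NR1H4 and the intestinal factor CDX2 were at 0 in all 6 libraries, and NR1I3 and HNF4A were above the floor in at most 1 library.

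**Figure D3:**
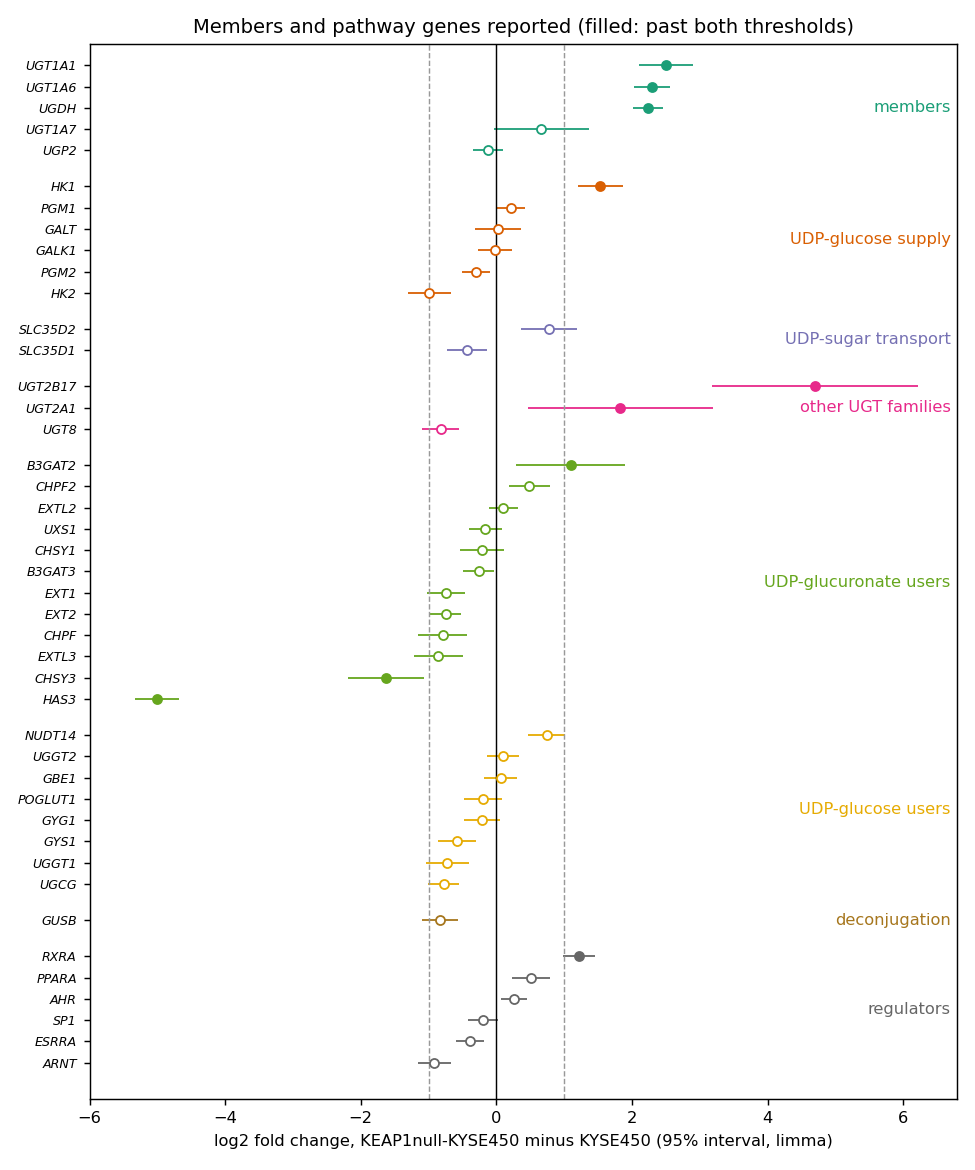
Log2 fold change of KEAP1null-KYSE450 over KYSE450 (x axis, limma) with its 95% interval for the members and the pathway genes reported that could be tested, grouped by list, with dashed lines at a log2 fold change of 1 in each direction. Filled points passed both thresholds: UGDH at 2.23, UGT1A6 at 2.29 and UGT1A1 at 2.50 lie to the right, and HAS3 at -5.003 lies far to the left. The position of UGT2B17 depends on the pseudocount.

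Neighbours on the chromosome were compared to see whether the changes stopped at the members. Around the UGT1A locus, the 3 nearest tested genes on each side were USP40, DGKD and ATG16L1 at 0.45, -0.09 and -0.44, and HJURP, MSL3P1 and ENSG00000228162 at -0.48, -0.05 and 5.22. ENSG00000228162 alone passed both thresholds, at a distance of 665 kb. With means of 6.09 normalized counts in KYSE450 and 257 in KEAP1null-KYSE450, it reached the filter only through KEAP1null-KYSE450. USP40, ATG16L1 and HJURP missed only the fold change cutoff (adjusted p = 0.0031, 0.012 and 8.3e-04 from limma). Around UGP2, none of the 6 passed both thresholds, with log2 fold changes from -0.43 for PELI1 to 0.52 for WDPCP. PELI1 and WDPCP missed only the fold change cutoff (adjusted p = 0.0059 and 0.007 from limma).

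Around UGDH, the genes RFC1, RPL9 and LIAS, on the side of its 3' end, were at -0.30, 0.34 and 0.57 and did not pass. RFC1 and LIAS missed only the fold change cutoff (adjusted p = 0.029 and 0.0015 from limma). On the other side, 3 of 3 rose, beside 12.2% of all genes tested. These genes are few and some overlap, so the count is not read as a difference between the sides. SMIM14, which lies upstream of UGDH on the same strand and encodes a small membrane protein, had 1153, 1365 and 1221 normalized counts in KYSE450 and 6468, 7325 and 6742 in KEAP1null-KYSE450. In limma it rose by a log2 fold change of 2.46 with a standard error of 0.10 (adjusted p = 1.4e-09), beside 2.23 for UGDH, 18.02 kb away. UGDH-AS1, an antisense RNA that overlaps UGDH, rose from 171 ± 21.3 to 486 ± 25.4 normalized counts (SD, n = 3; log2 fold change 1.51). Its span, 39527720 to 39594707 on the plus strand, also overlaps that of SMIM14, 39546336 to 39638902 on the minus strand. Strand-aware counting is not stated. Reads of UGDH-AS1 and those of UGDH or SMIM14 therefore cannot be told apart where their exons overlap. SMIM14-DT, a divergent RNA, was low, with 28.9, 7.08 and 27.0 normalized counts in KYSE450 and 44.3, 60.1 and 71.6 in KEAP1null-KYSE450 (log2 fold change 1.63, adjusted p = 0.014 from limma). It passed in 10 of 16 other settings, and without KEAP1null-KYSE450 library 3 its adjusted p was 0.063.

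**Figure D4:**
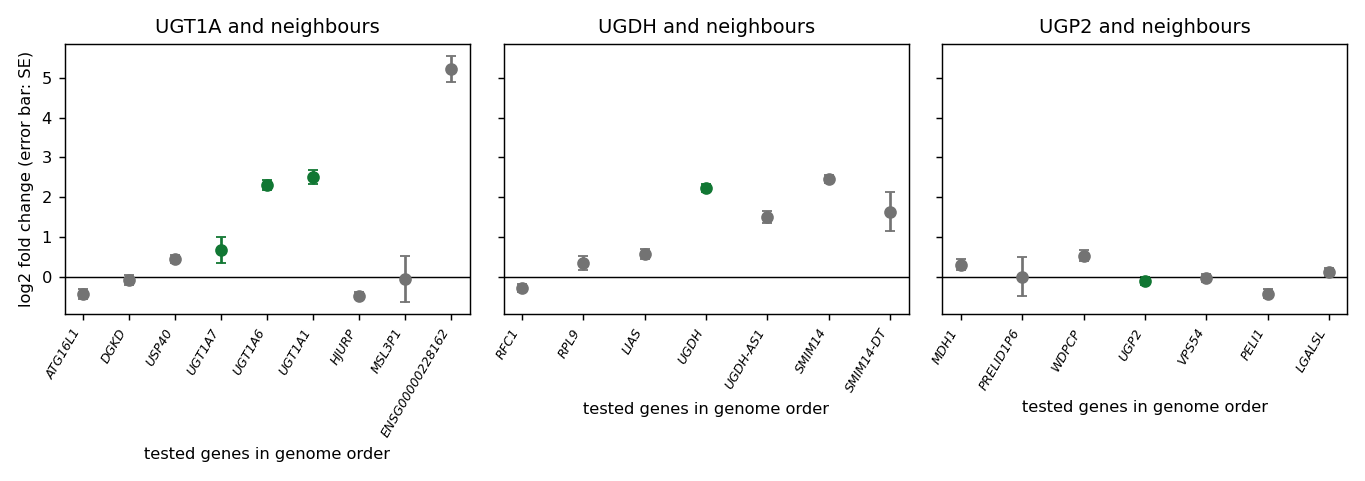
Log2 fold change of KEAP1null-KYSE450 over KYSE450 (y axis, with its standard error from limma) for the tested members (green) and the 3 nearest tested genes on each side (grey), in genome order for the UGT1A locus, UGDH and UGP2. SMIM14 at 2.46, UGDH-AS1 and SMIM14-DT lie near UGDH at 2.23, while HJURP, next to UGT1A1, lies at -0.48 and VPS54, next to UGP2, at -0.03.

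Over the 6 libraries, the genes whose pattern was most like that of UGDH, by Euclidean distance of mean-centred log2 values, were PGD, SCN2A and ABHD4 at 0.13, 0.19 and 0.23. For UGT1A6 they were SCN2A, PGD and P2RY1 at 0.16, 0.19 and 0.24. PGD encodes 6-phosphogluconate dehydrogenase of the pentose phosphate pathway. It had 17394 normalized counts on average in KYSE450 and 78673 in KEAP1null-KYSE450. This distance includes the difference between the lines, so it ranks genes of like fold change first.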

How the data were processed

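Total RNA of 6 libraries, 3 per line, was sequenced. The authors aligned reads to hg38 with STAR (version 2.6.90c in the submitters' processing notes), counted them per gene with featureCounts (1.5.1) and deposited normalized counts, a signal per gene that equals the reads divided by 1 factor per library. Values of 4 libraries could be turned back into whole reads (100% of values within 0.1 read), and the step of the other 2 was too near 1. Columns carry no replicate number, so libraries are numbered by column order within a line.

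Differences were tested with limma 3.58.1 (R 4.3.3; lmFit, eBayes with trend) on log2(value + 1) over the 16701 genes whose mean reached 10, with Benjamini-Hochberg adjustment. This scale understates changes of low genes. All tests were two-sided. Alternatives, each run on the whole table, were quantile normalization, scaling every library to an equal total, leaving the filter out, a minimum mean of 100, a pseudocount of 0.1 or 10, leaving each library out, the adjusted p alone as the rule, limma's treat with a fold of 2, a prior without a trend, and edgeR 4.0.16 and DESeq2 1.42.0 on the reads of 4 libraries. The fits were tested on simulated data. Named genes were all members, KEAP1, NFE2L2, NQO1, GCLC, pathway genes past both thresholds or needed to account for a small count, the 3 nearest tested genes on each side of a locus, and the 3 genes most like UGDH or UGT1A6. Other pathway genes and locus rows named, among them HK2, PGM1, UGT2B15, UGT1A5 and UGT1A2P, were chosen after their values were seen. Some genes counted in the pathway lists are not reported here by name. Members, lists and tests were chosen with earlier results of these data known. Genes were matched to gencode v44 by identifier, UGT1A3 by symbol. The annotation and the overlap and strand settings of the counting are not given in the sources used here. Promoter windows came from RefSeq (GRCh38.p14).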

Additional observations from a re-analysis of the deposited data

How the results depend on the processing

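No paired analysis was possible because the columns carry no replicate numbers. Under 17 other settings, UGDH (log2 fold change 2.16 to 2.41), UGT1A6 (2.21 to 2.42) and UGT1A1 (2.24 to 2.56) passed both thresholds in each, and 0 members fell. The members that rose numbered 3 in each setting except without a filter, where UGT1A4 made it 4. UGT1A4 was at or below the floor of 3 reads in every library (0 in KYSE450, and 0.92, 3.06 and 2.02 normalized counts in KEAP1null-KYSE450). That call depends on the pseudocount and is not read as a rise. UGT1A7 passed both thresholds in none of its 16 (0.16 to 0.78, lowest adjusted p = 0.022 in limma without a trend). The log2 ratio of the UGT1A sum lay between 2.18 and 2.31. UGP2 turned to 0.075 (adjusted p = 0.59 from limma) under quantile normalization, and the cause was not tested. Quantile normalization also moved the split of all genes tested from 2045 higher and 999 lower to 1388 and 1289.

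Of the pathway genes, 2 rose and 1 fell with a mean of at least 100, 3 rose under quantile normalization, 10 rose and 17 fell with no fold change cutoff, and 2 rose and 1 fell in the test against a fold change of 2. With a library left out, 3 to 4 rose and 2 to 4 fell: 3 without KEAP1null-KYSE450 library 1 or 2 for the rises, and 4 without KYSE450 library 3 or KEAP1null-KYSE450 library 1 for the falls, where HK2 with ARNT or EXTL3 crossed the cutoff. Over all genes, 875 rose with a mean of at least 100, 4060 with no cutoff and 626 in the test against a fold change of 2, and 4251 and 395 fell under the last pair. The stricter filter tests fewer genes, and the cutoff changes the rule itself. Depth limits the 5 UGT1A rows near 0, which cannot be ranked.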

Other observations

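The locus also holds rows that are no members. UGT1A5 had 0 in KYSE450 and 0, 4.08 and 1.01 normalized counts in KEAP1null-KYSE450. UGT1A2P, a pseudogene between UGT1A first exons, had 1.07, 0 and 0 in KYSE450 and 2.77, 11.2 and 9.08 in KEAP1null-KYSE450. UGT1A11P, UGT1A12P and UGT1A13P, also pseudogenes of the locus, were at 0 in all 6 libraries.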
